A study of Mus musculus and Homo sapiens with 22 samples.

Results

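Genes that make, store, recapture or break down catecholamines, acetylcholine and GABA were followed through the gene expression files of N2A cells, a mouse neuroblastoma line. The 10 mouse genes Th, Ddc, Dbh, Gch1, Slc18a2, Ache, Chat, Slc18a3, Slc5a7 and Gad1 were chosen by name for their role in transmitter handling. The choice was made with earlier results of these data known. Of the 10, 9 were matched to an identifier among the 22667 genes of each file. Slc18a3 was not analysed here, because its identifier in the name table used had no row.

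Catecholamines are made from tyrosine. Tyrosine hydroxylase, encoded by Th, makes L-DOPA and sets the rate of the pathway, and it needs the cofactor tetrahydrobiopterin, whose synthesis begins with the GTP cyclohydrolase encoded by Gch1. Ddc encodes the decarboxylase that turns L-DOPA into dopamine, Slc18a2 the transporter that loads monoamines into vesicles, and Dbh the vesicle enzyme that turns dopamine into noradrenaline. Acetylcholine is made by the product of Chat, loaded into vesicles by that of Slc18a3 and cleaved by the esterase encoded by Ache, while Slc5a7 encodes the high-affinity choline transporter that feeds its synthesis. Gad1 encodes a glutamate decarboxylase that makes GABA. Sympathetic neurons, the lineage from which neuroblastoma arises, are typically noradrenergic, and a minority of them are cholinergic.

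The series set out to examine what nSR100, Ptbp1 and U2af65 do in alternative splicing. N2A cells had been transfected with a siRNA pool against U2af65 (siU2af65, 1 library, letter a), against Ptbp1 (siPtbp1, 1 library, letter b) or with a non-targeting pool (siCtrl, 2 libraries, a and b), and were harvested 48 hours later. Other N2A cells carried a lentiviral hairpin against the 3′ untranslated region of nSR100 (shnSR100) or against GFP (shGFP), and each was a stable population kept in 2 ug/mL puromycin. Each hairpin group is 1 file in which 2 runs of different read lengths were combined, so it has no replicate. The series also held human 293T samples and crosslinking libraries, which were not analysed here.

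Reads in genes ran from 60220620 to 77138004 per file. The targeted genes followed their labels, with U2af2 at 18.4 RPKM in siU2af65 against 113 and 105 in siCtrl a and b, Ptbp1 at 8.53 RPKM in siPtbp1 against 158 and 139 in siCtrl a and b, and Srrm4, which encodes nSR100, at 2.50 RPKM in shnSR100 against 11.6 in shGFP. RPKM is the number of reads scaled by gene length and by the total reads of the file. All 6 neuroblastoma and neuronal markers checked, Mycn, Stmn2, Tubb3, Elavl4 and Gap43 among them, had at least 11.3 RPKM in every file. Summed over the list, 5 glial markers had 2.34 to 5.14 RPKM and 4 immune markers 0.30 to 0.86 RPKM. The 5 fibroblast markers summed to 0.41 to 0.83 RPKM in the siRNA libraries and to 12.0 and 7.21 RPKM in shnSR100 and shGFP, mostly from Dcn and Pdgfra.

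N2A cells expressed the catecholamine genes and Ache, and held almost no transcripts of the genes that make acetylcholine or GABA. Averaged over the 6 files, Slc18a2 stood highest at 81.7 RPKM, followed by Gch1 at 61.9, Ache at 21.8, Th at 8.76, Dbh at 8.33 and Ddc at 4.20 RPKM. Chat averaged 0.0817, Gad1 0.00667 and Slc5a7 0.00167 RPKM. The ranges over the files of Th (3.42 to 20.2 RPKM), Dbh (0.54 to 21.0 RPKM) and Ddc (1.14 to 10.3 RPKM) overlapped, so the order of these enzyme genes was not fixed. Slc18a2 and Gch1 overlapped as well (44.55 to 112 and 47.5 to 77.7 RPKM), and both stood above Th, Ddc, Dbh and Ache in every file. In bulk RNA, fewer cells expressing a gene and less RNA per cell cannot be told apart.

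The silent members differed in how empty they were. Slc5a7 had 0 reads in each of the 4 siRNA libraries, which allows a level of up to 0.0389 to 0.0469 CPM there, at 3 reads per library, where CPM scales a count only by the library's total, and 1 and 4 reads in shnSR100 and shGFP. Gad1 had 1 read in siPtbp1, 0 in the other siRNA libraries, and 2 and 3 reads in shnSR100 and shGFP. Chat was detected in every file, at 15 reads in siU2af65, 28 in siPtbp1, 9 and 21 in siCtrl a and b, 8 in shnSR100 and 11 in shGFP, or 0.04 to 0.15 RPKM. The 95% Poisson interval of the 28 reads, 18.6 to 40.5, reached below the 21 reads of siCtrl b. Per gene length and depth, Chat in siPtbp1 was 1.47 times its level in siCtrl b (95% counting interval 0.805 to 2.72) and 2.84 times that in siCtrl a (1.30 to 6.85). In the GRCm38.p6 annotation of RefSeq, Slc18a3 lies inside the span of Chat, so the few Chat reads could include reads from that gene. Intervals and limits of this kind cover counting error only.

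**Figure D1:**
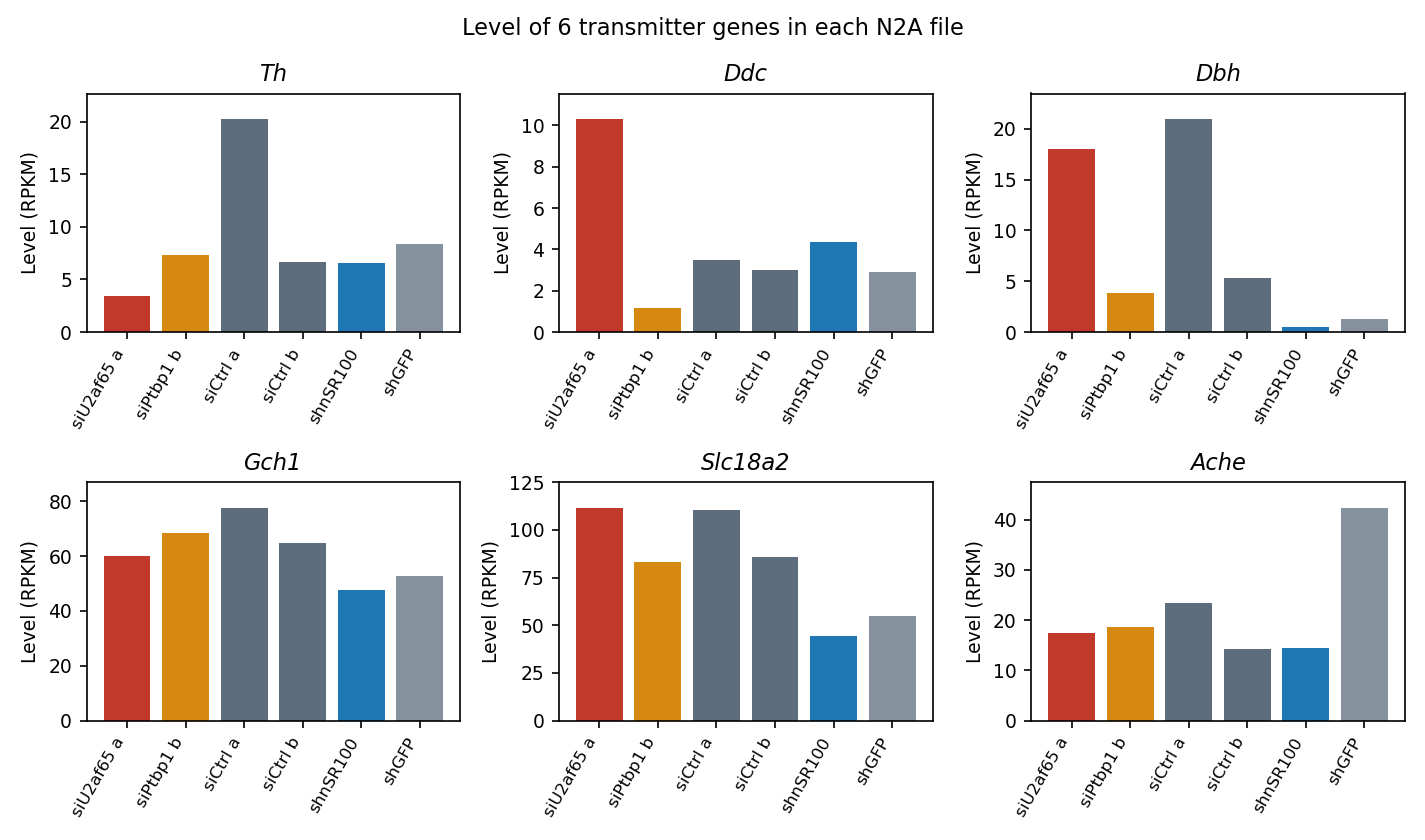
Level (RPKM, linear axis from 0) of the 6 expressed members in each of the 6 N2A files, with 1 bar per file and no error bar. Th is highest in siCtrl a (20.2 RPKM), Ddc in siU2af65 (10.3 RPKM) and Ache in shGFP (42.4 RPKM), and Dbh is at 18.1 and 21.0 RPKM in the letter a libraries and at or below 5.31 RPKM elsewhere.

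Among the members, Th and Slc18a2 both carry the letters of the cyclic AMP response element in the window that runs from 250 bases before to 50 after the gene start. These stretches are shown because Th opens the pathway and Slc18a2 fills the vesicle, and because this motif is well known from the Th promoter. The motif TGACGTCA, which reads the same on both strands, was found in 2 of the 10 members, which have 11 windows. Among 32851 such RefSeq windows (GRCm38.p6) of 27025 genes, 1.79% held it. Whether the members hold it more often was not tested. In Th it begins 45 bases before the start site, and in Slc18a2 4 bases before it. Capitals mark the motif in the 30 bases shown, 5′ to 3′ on the gene's strand.
Th, chr7:142900022-142900051, minus strand: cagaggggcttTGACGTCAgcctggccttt
Slc18a2, chr19:59260863-59260892, plus strand: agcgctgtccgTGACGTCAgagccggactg
A match is a description of these letters, and no binding was measured here. Across the 6 files the highest level over the lowest was 5.92 for Th and 2.51 for Slc18a2.

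The control libraries, whose spread the tests below rest on, lay far apart in Th and Dbh. Counts scaled by TMM (a normalization that compares libraries through their typical genes), with 0.5 CPM added to each, were 3.24-fold higher in siCtrl a than in siCtrl b for Th and 4.17-fold higher for Dbh. Of the 11237 genes tested, 0.222% lay as far apart between the controls as Th or further, and 0.107% as far as Dbh. Ache was 1.78-fold, Slc18a2 1.40-fold, Gch1 1.30-fold and Ddc 1.25-fold higher in siCtrl a. All 6 expressed members were thus higher in siCtrl a, while the median of all tested genes differed by -0.04 on the log2 scale. The labels do not say what the letters a and b mark. Since each knockdown has 1 letter only, each knockdown is compared below with the pair of controls and with the control of its own letter. A fit with the letter as a term leaves no spread to test against, so within-letter values have no p. Every difference from a single control, and between the controls, is one of log2(CPM + 0.5), in which the added 0.5 pulls the differences of low genes toward 0, while pooled differences are edgeR's.

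**Figure D2:**
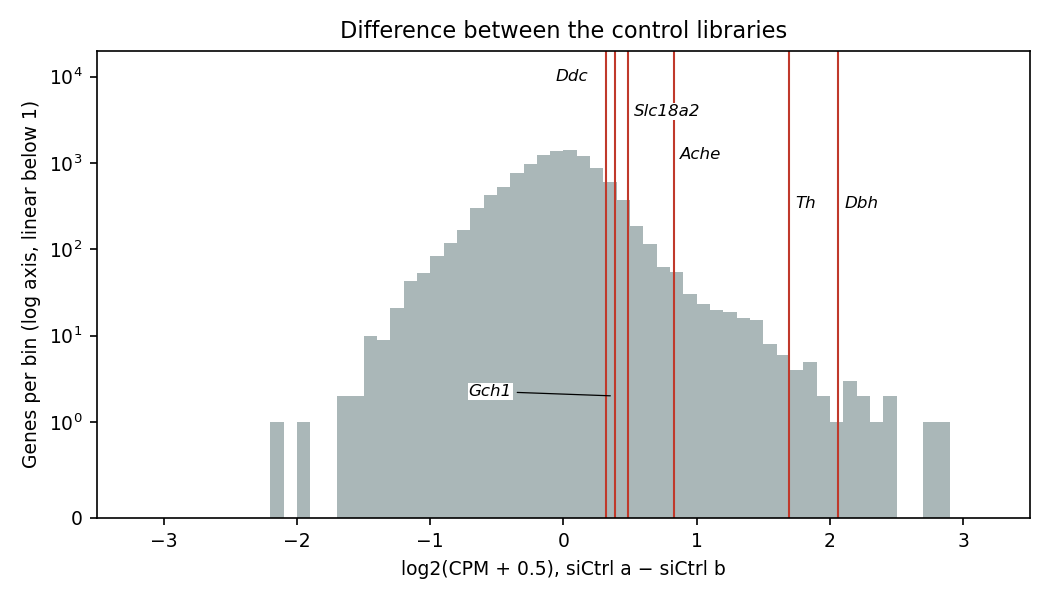
Difference between siCtrl a and siCtrl b in log2(CPM + 0.5) for all 11237 tested genes, as a histogram of genes per bin on a log axis that is linear below 1, with the 6 tested members as red lines. All 6 lie above 0, and Th (1.69) and Dbh (2.06) lie in the sparse right tail.

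U2af65 knockdown was set against the siCtrl pair for the 6 members that averaged 1 RPKM or more in the siRNA libraries. Chat, Slc5a7 and Gad1 fell below that filter. Th and Ddc stood apart in opposite directions, and Gch1, Slc18a2, Ache and Dbh differed by less than the spread of the controls. No member passed edgeR's quasi-likelihood test over all genes (0 of 6 at a Benjamini-Hochberg adjusted p under 0.05), where 5.24% of all 11237 genes were called, 1.82% as higher and 3.42% as lower. At an unadjusted p under 0.05 there were 2, Th and Ddc, where 23.5% of all genes were, and both were called by DESeq2 and by limma. The median log2 difference of the 6 was -0.07, against 0.00 over all genes. The 5 glial markers summed to 5.14 RPKM in siU2af65, against 2.60 and 2.71 RPKM in siCtrl a and b, with Gfap and Aqp4 at or below 0.12 RPKM in these libraries, and their part in the differences was not tested.

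Ddc was higher in siU2af65 than in any other file. It had 10.3 RPKM (1321 reads) in siU2af65, against 3.49 RPKM (418 reads) in siCtrl a and 2.99 RPKM (432 reads) in siCtrl b. The controls lay close together and the knockdown outside them. Scaled counts were 18.5 CPM in siU2af65, against 6.27 ± 1.05 CPM in siCtrl (SD, n = 2), a log2 difference of 1.56 (edgeR adjusted p = 0.0506, SE 0.39). That p lies at the threshold, 5 of 9 alternative analyses called it, and over them the adjusted p ran from 0.00132 to 1. The alternatives with shGFP among the controls called 0 of all genes in every siRNA comparison. Their lack of a call is thus not particular to Ddc. Against siCtrl a alone, which shares the letter of siU2af65, the log2 difference was 1.34, and against siCtrl b alone 1.66.

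Th was lower in siU2af65 than in any other file. It had 3.42 RPKM (417 reads) in siU2af65, against 20.2 RPKM (2304 reads) in siCtrl a and 6.61 RPKM (907 reads) in siCtrl b. The knockdown lay below both controls, which were themselves far apart. Scaled counts were 5.85 CPM in siU2af65, against 25.1 ± 19.1 CPM in siCtrl (SD, n = 2), a log2 difference of -2.10 (edgeR adjusted p = 0.0843, SE 0.63). Of 10 alternatives 5 called it, with adjusted p from 1.51e-07 to 1. The alternatives that did not call it include the fits with shGFP among the controls, which called 0 of all genes. The log2 difference was -2.63 against siCtrl a and -0.93 against siCtrl b, so its size rests on siCtrl a.

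Dbh was high in both letter a libraries, knockdown and control. It had 18.1 RPKM in siU2af65, against 21.0 RPKM in siCtrl a and 5.31 RPKM in siCtrl b. The pooled log2 difference was 0.32 (edgeR adjusted p = 0.799, SE 0.61), and it was -0.37 against siCtrl a and 1.69 against siCtrl b, so its direction depends on the control taken. Slc18a2 had 112 RPKM in siU2af65, against 110.4 and 85.8 RPKM in siCtrl a and b, and its pooled log2 difference was 0.08 (SE 0.28). Gch1 had 60.2 RPKM in siU2af65, against 77.7 and 64.8 RPKM in siCtrl a and b, with a log2 difference of -0.35 (SE 0.24). Ache had 17.5 RPKM in siU2af65, between the 23.4 and 14.2 RPKM of siCtrl a and b, with a log2 difference of -0.22 (SE 0.33). The signs for Slc18a2 and Ache also depend on the control, at -0.14 and -0.58 against siCtrl a and 0.34 and 0.25 against siCtrl b.

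In the siPtbp1 library Ddc was at its lowest level of any file. With Ptbp1 knockdown none of the 6 tested members passed edgeR's test (0 of 6, against 0.0267% called of all 11237 genes). At an unadjusted p under 0.05 there were 2, Ddc and Dbh, where 4.28% of all genes were. DESeq2 called 0 and limma on log2(RPKM + 1) called 1, Dbh. All 6 log2 differences were negative in edgeR's fit, with a median of -0.63 against 0.01 over all genes, while that of Ache was 0.02 with limma on log2(RPKM + 1). Within the letter, Th, Gch1 and Ache had positive differences, of 0.15, 0.09 and 0.39 against siCtrl b.

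Ddc had 1.14 RPKM (149 reads) in siPtbp1, against 3.49 and 2.99 RPKM in siCtrl a and b. The knockdown lay below both controls by more than they differed. The log2 difference was -1.57 (edgeR adjusted p = 0.821, SE 0.45, range of p 0.0281 to 1 over the alternatives), at -1.21 against siCtrl b, which shares its letter, and -1.52 against siCtrl a. The added 0.5 CPM shrinks both single-control values, since Ddc was at 2.11 CPM in siPtbp1. Dbh had 3.80 RPKM (666 reads) in siPtbp1, against 21.0 RPKM (3356 reads) in siCtrl a and 5.31 RPKM (1025 reads) in siCtrl b. Its pooled log2 difference of -1.88 (adjusted p = 0.999, SE 0.68, range of p 5.48e-07 to 1 over the alternatives) was -0.45 against siCtrl b and -2.51 against siCtrl a. Th had 7.34 RPKM in siPtbp1, close to the 6.61 RPKM of siCtrl b and well below the 20.2 RPKM of siCtrl a, and its pooled log2 difference was -0.95 (SE 0.59). The other members lay within or near the controls in siPtbp1. Slc18a2 had 83.2 RPKM, a log2 difference of -0.30 (SE 0.29). Gch1 had 68.5 RPKM, a difference of -0.12 (SE 0.24), and Ache 18.6 RPKM, a difference of -0.09 (SE 0.33).

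The knockdowns were also set directly against each other, since a call in either alone does not show that they differ. Ddc, at 18.5 CPM in siU2af65 against 2.11 CPM in siPtbp1, was higher by 3.13 on the log2 scale (edgeR adjusted p = 0.0188, SE 0.51), and it was the 1 member of 6 that passed, where 3.62% of all genes were called, 1.09% as higher and 2.54% as lower. The call was made in 6 of 7 alternatives and lost with shGFP added as a control (adjusted p = 0.628), a fit that called 0 of all genes. Under a filter of 5 RPKM Ddc was not tested. The contrast also compares a letter a library with a letter b library, so letter and knockdown cannot be told apart in it. The controls of these letters differed in Ddc by 0.32. Dbh, at 43.4 CPM in siU2af65 against 9.45 CPM in siPtbp1, had a log2 difference of 2.20 (edgeR adjusted p = 0.134, SE 0.75). It was called in 4 of 8 alternatives, with adjusted p from 4.42e-08 to 0.804, and the controls of these letters differed by 2.06. Th had a difference of -1.15 (adjusted p = 0.371, SE 0.67), and those of Slc18a2, Gch1 and Ache were 0.38, -0.23 and -0.14.

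**Figure D3:**
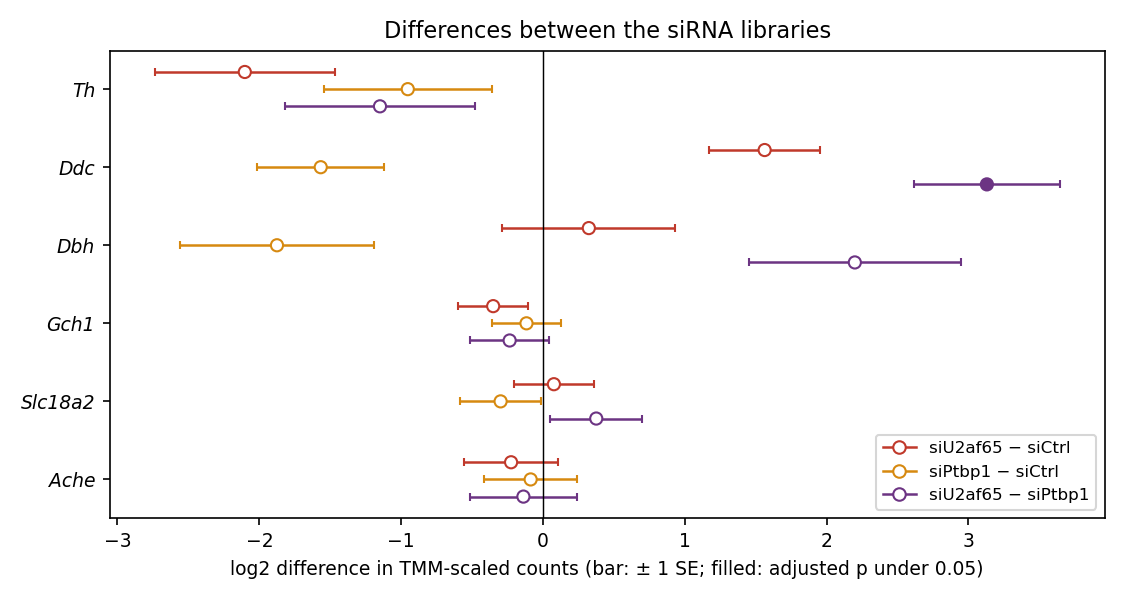
Log2 differences in TMM-scaled counts for the 6 tested members (points), with bars of ± 1 SE, for siU2af65 minus siCtrl, siPtbp1 minus siCtrl and siU2af65 minus siPtbp1, where filled points mark an adjusted p under 0.05. The 1 filled point is Ddc between the knockdowns, at 3.13, and Gch1, Slc18a2 and Ache lie within 0.38 of 0 throughout.

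Stable nSR100 knockdown went with a lower level of Ache, the esterase that ends acetylcholine signalling. Ache had 14.4 RPKM (2258 reads) in shnSR100, against 42.4 RPKM (5462 reads) in shGFP. The shGFP value was the highest of the 6 files and the shnSR100 value lay close to the 14.2 RPKM of siCtrl b. The level in shnSR100 was 33.8% of that in shGFP (95% counting interval of the ratio 0.322 to 0.355, exact binomial). With 1 file per group there is no replicate check and no p. Ache was the 1 member past a 2-fold difference on the log2(RPKM + 1) scale, where 0.918% of 11877 genes were past it. Of the 6 neuronal markers 5 were also lower in shnSR100, with a summed level of 572 RPKM in shnSR100 against 966 RPKM in shGFP, of which Mycn was past 2-fold (11.3 RPKM in shnSR100, 26.9 RPKM in shGFP). The 5 fibroblast markers summed to 12.0 RPKM in shnSR100 and 7.21 RPKM in shGFP. None was past 2-fold on the log2(RPKM + 1) scale, which compresses low levels. Pdgfra differed by 0.867 on that scale, but by RPKM itself it was more than 2-fold higher in shnSR100. Dcn (5.70 RPKM in shnSR100, 3.99 in shGFP) and Pdgfra (5.82 RPKM in shnSR100, 2.74 in shGFP) carried the sum, while Col1a1 had 0.47 RPKM in shnSR100 and 0.48 in shGFP, Lum 6 reads in shnSR100 and 0 in shGFP, and Col3a1 0 reads in both. The part of these marker differences in the Ache difference was not tested.

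Dbh was also lower, at 0.54 RPKM (100 reads) in shnSR100 against 1.26 RPKM (190 reads) in shGFP, a ratio of 0.431 (95% counting interval 0.335 to 0.551). Dbh varied most over the files among the expressed members (38.8-fold between the highest and the lowest), and both hairpin files lay below every siRNA library. On the log2(RPKM + 1) scale, which compresses low levels, its difference was -0.55, and with 0.1 in place of 1 it was -1.09 and past 2-fold. Ddc went the other way, at 4.35 RPKM (600 reads) in shnSR100 against 2.93 RPKM (331 reads) in shGFP, a ratio of 1.48 (95% counting interval 1.29 to 1.70). Th had 6.56 RPKM in shnSR100 against 8.39 RPKM in shGFP, a ratio of 0.783 (0.712 to 0.860). The most abundant members differed least. Slc18a2 had 44.55 RPKM in shnSR100 against 54.6 RPKM in shGFP (ratio 0.815), and Gch1 had 47.5 RPKM in shnSR100 against 52.8 RPKM in shGFP (ratio 0.899). By the same RPKM ratio, siCtrl a stood 1.29-fold over siCtrl b for Slc18a2 and 1.2-fold for Gch1. For Dbh it stood 3.95-fold over siCtrl b, for Th 3.06-fold, for Ache 1.65-fold and for Ddc 1.17-fold.

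**Figure D4:**
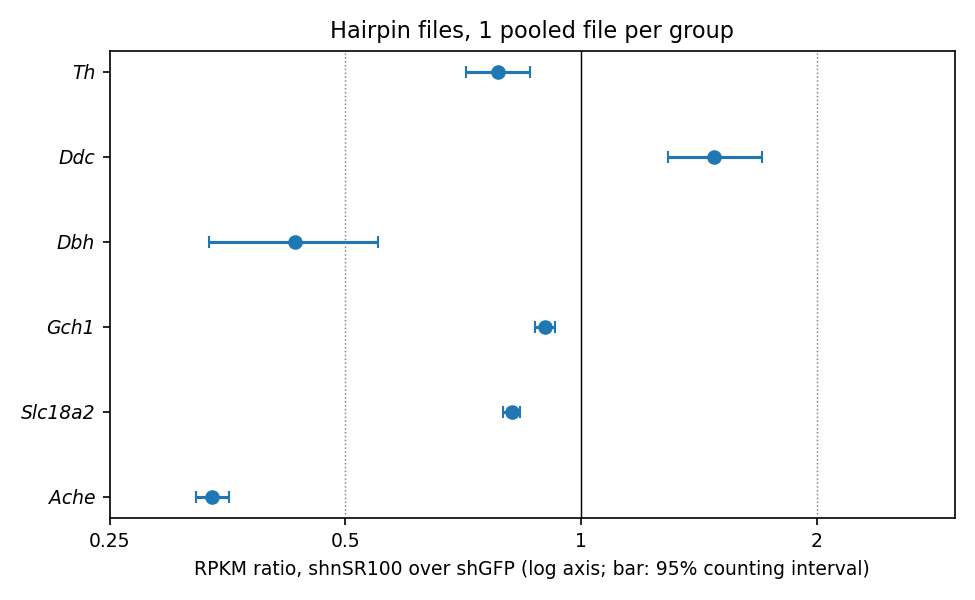
Ratio of RPKM in shnSR100 over shGFP for the 6 expressed members on a log axis, with bars for the 95% counting interval and dotted lines at 0.5 and 2. Ache (0.338) and Dbh (0.431) lie lowest and Ddc (1.48) is the 1 member above 1, and the bars do not include variation between cultures.

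Of 32 other genes of transmitter synthesis, transport and breakdown, 16 averaged at least 1 RPKM over the 6 files and 10 averaged under 0.1 RPKM. Of all 22667 genes, 11510 averaged at least 1 RPKM, so the count of 16 is near the share of all genes. In the group for catecholamine synthesis and its cofactor 7 of 8 genes reached 1 RPKM, and the exception was Pnmt, which makes adrenaline from noradrenaline and had 0 reads in every file. Slc6a2 and Slc6a3, the plasma membrane transporters for noradrenaline and dopamine, had at most 1 read per file. The monoamine oxidase gene Maoa had 0.83 to 1.05 RPKM and Maob 0 reads. Prima1, which anchors the esterase in the membrane of neurons, had 5.24 to 29.0 RPKM and was highest in shGFP, as Ache was. Acly, a source of acetyl-CoA, was the highest of the list at 163 to 307 RPKM. Gad2, the other glutamate decarboxylase gene, and Slc17a6, a vesicular glutamate transporter gene, stayed at or below 0.15 RPKM. Tph2, which encodes the neuronal form of tryptophan hydroxylase, had 3.36 to 9.01 RPKM.

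After U2af65 knockdown 3 of the 16 tested pathway genes fell and 0 rose, where 3.42% of all genes fell, and the median log2 difference of the 16 was -0.49 against 0.00 over all genes. At an unadjusted edgeR p under 0.05 there were 8 of the 16, where 23.5% of all genes were. The pathway list was chosen with earlier results of these data known, so these counts are descriptive. Pcbd1, whose product helps recycle tetrahydrobiopterin, had 20.0 RPKM in siU2af65, against 60.3 and 54.3 RPKM in siCtrl a and b. It fell by 1.62 on the log2 scale (edgeR adjusted p = 0.0152, SE 0.27) and was also lower than in siPtbp1, where it had 69.5 RPKM (log2 difference -1.84, SE 0.29, edgeR adjusted p = 0.0161). Other tetrahydrobiopterin genes did not pass. Qdpr, which regenerates the cofactor, had a difference of -0.84 (adjusted p = 0.0556, SE 0.22), Pts, the second enzyme of its synthesis, one of -1.43 (adjusted p = 0.110, SE 0.47), and Spr, the last enzyme, one of 0.99 (adjusted p = 0.105, SE 0.32). Slc44a1, a choline transporter, had 13.5 RPKM in siU2af65, against 29.7 and 23.4 RPKM in siCtrl a and b, and it fell by 1.09 (edgeR adjusted p = 0.0460, SE 0.26). That call was lost under a filter of 5 RPKM (adjusted p = 0.0726). Tph1, a tryptophan hydroxylase of serotonin synthesis, had 1.39 RPKM in siU2af65, against 5.42 and 4.65 RPKM in siCtrl a and b, and it fell by 1.96 (adjusted p = 0.0479, SE 0.48). The 3 calls were each lost in the fits with shGFP among the controls. Those fits called 0 of all genes higher and 0 lower, so the loss is not particular to these 3.

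After Ptbp1 knockdown 0 of the 16 were called by edgeR, where 0.0267% of all genes were, so the count says nothing particular to the list. At an unadjusted p under 0.05 there were 2, where 4.28% of all genes were. Slc44a1 had 13.0 RPKM in siPtbp1 and a log2 difference of -1.10 (edgeR adjusted p = 0.626, SE 0.26, range of p 0.0132 to 1 over the alternatives). Between shnSR100 and shGFP 0 of 18 pathway genes were past 2-fold, where 0.918% of all genes were, a share at which a list of this size need hold none.

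**Figure D5:**
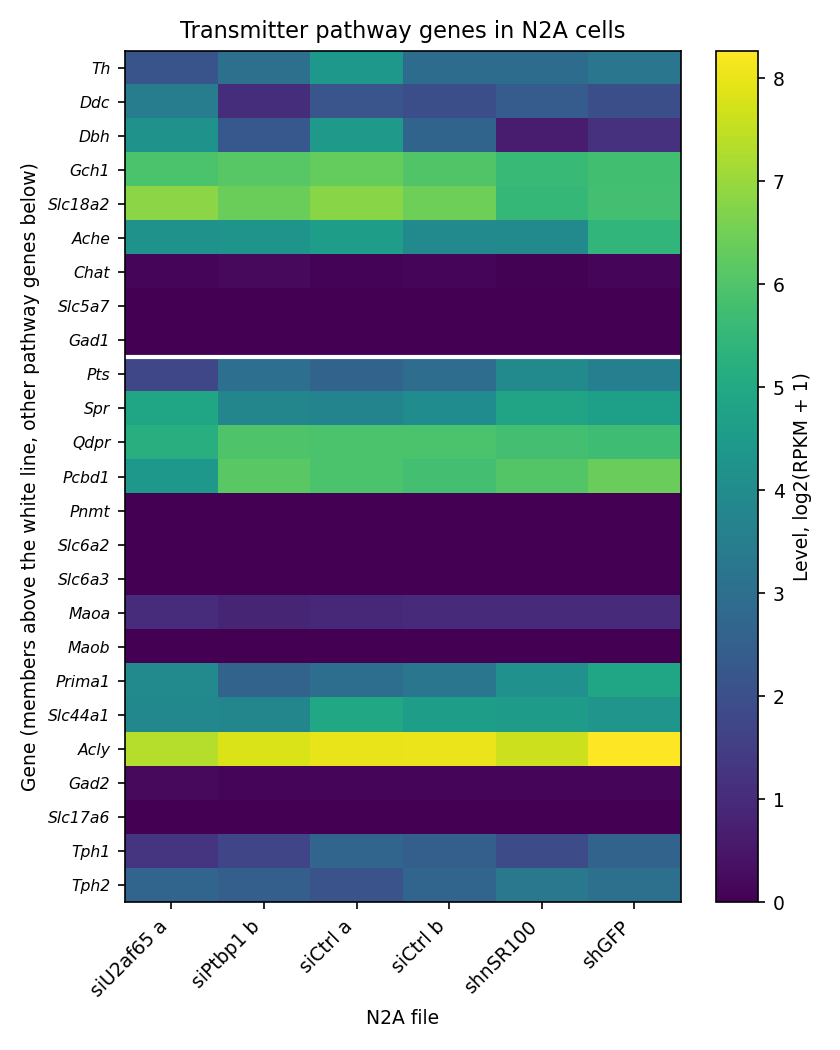
Level, as log2(RPKM + 1), of the 9 members with values (above the white line) and 16 other pathway genes named in the text (below it) in the 6 N2A files, shown as colour. The members Chat, Slc5a7 and Gad1 are dark in every file, as are Pnmt, Slc6a2, Slc6a3 and Maob, while Acly is the brightest gene shown in every file and Slc18a2 and Gch1 are the brightest members.

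Transcription factors of the sympathetic lineage, several of which are known to act on Th and Dbh, averaged at least 1 RPKM in 7 of 8 cases. Among all 22667 genes 11510 did. Of these 7, 2 fell and 0 rose after U2af65 knockdown, where 3.42% of all genes fell and 1.82% rose. There 3 had an unadjusted edgeR p under 0.05, against 23.5% of all genes. This list too was chosen with earlier results of these data known, so its counts are descriptive. After Ptbp1 knockdown 0 were called, against 0.0267% of all genes, and 1 had an unadjusted p under 0.05, against 4.28% of all genes. Isl1 had 5.79 RPKM in siU2af65, against 19.5 and 15.3 RPKM in siCtrl a and b, and fell by 1.70 (edgeR adjusted p = 0.0179, SE 0.30). Tfap2b had 0.34 RPKM in siU2af65, against 1.46 and 1.57 RPKM in siCtrl a and b, and fell by 2.24 (edgeR adjusted p = 0.0295, SE 0.46), a call made in 4 of 9 alternatives and lost with limma at either pseudocount (adjusted p = 0.168 and 0.0809). Both calls were lost in the 3 fits with shGFP among the controls, with adjusted p of 0.440 to 1 for Isl1 and 0.437 to 1 for Tfap2b. Those fits called 0 of all genes, so this loss is not particular to Isl1 and Tfap2b. Hand2, the most abundant of them, had a difference of -0.34 (SE 0.25).

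For each expressed member, the genes with the closest profile over the 6 files were found by the root mean square distance between mean-centred log2(CPM + 1) values, among 11509 other genes. The closest to Dbh were Ankrd37 (distance 0.412) and Bnip3 (0.413), and Adm followed at 0.547, against a median distance of 1.72 over all genes. Bnip3 had 245.5 RPKM in siU2af65, 92.7 in siPtbp1, 460 and 108 in siCtrl a and b, 31.4 in shnSR100 and 47.4 in shGFP, so it too was highest in the letter a libraries and lowest in the hairpin files. The closest to Th was Nfkbia (0.261), to Ddc Plxnd1 (0.278) and to Ache Celf3 (0.202), with median distances of 0.809, 0.837 and 0.611. Celf3 had 27.3 RPKM in shnSR100 against 67.3 RPKM in shGFP. Slc18a2 lay closest to Dyrk1b (0.0843) and Gch1 to Sms (0.0439). These distances describe 6 files that share libraries and scaling, and they carry no test.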

How the data were processed

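RNA-seq files of N2A cells were used as deposited. They have no header, so units were read from their names, which state RPKM, and from the fixed ratio between the columns. For each Ensembl gene the authors gave a raw read count and an RPKM. A blank count was taken as 0, and 1114 genes without an RPKM did not enter filters on RPKM. The submitters' processing notes name Bowtie, bedtools 2.17.0, hg19 and mm9 and give them no role. The counting rule, strand use and annotation are not given in the sources used here, so reads that overlapping genes could share are uncertain (noncoding genes at Ddc, Ache and Gad1, a pseudogene in Gch1). Symbols were matched to 20759 of 22667 identifiers, and promoter windows came from RefSeq (GRCm38.p6).

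edgeR 4.0.16 (R 4.3.3) tested the counts of the 4 siRNA libraries after TMM scaling, over 11237 genes that averaged 1 RPKM or more. The spread comes from the siCtrl pair alone (1 residual and 8.65 prior degrees of freedom), so each lone knockdown library is assumed to vary like the controls. The SE was taken as the size of the log2 fold change over the root of F. The labels do not say whether the controls were separate cultures, and p-values reflect the spread of these libraries only, which may be technical. DESeq2 1.42.0 and limma 3.58.1 were alternatives, and all tests were first tested on simulated data. Hairpin files were described with exact counting intervals at 95%. All members are named. Of the other lists, genes called or past 2-fold and the most abundant gene of each subgroup are named by rule, and any further list gene was chosen after its values were seen. Some list genes that this rule names are not reported here. Members and lists were chosen with earlier results of these data known.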

Additional observations from a re-analysis of the deposited data

How the results depend on the processing

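Members called in siU2af65 against siCtrl numbered 0 in the reported analysis and 2 with library totals in place of TMM, with DESeq2, with no filter and with limma at either pseudocount. For siPtbp1 against siCtrl the number was 0, against 1 with library totals and with limma at either pseudocount, and 2 with no filter. For siU2af65 against siPtbp1 it was 1, against 2 with library totals and with limma at either pseudocount, 3 with no filter, and 0 under a filter of 5 RPKM or with shGFP added as a control. Between the hairpin files 1 member was past 2-fold, and 2 were with log2(RPKM + 0.1). Robust edgeR changed none of the numbers for the 3 siRNA comparisons. The signs that turned were of differences not called in the reported analysis, one of which, Dbh in siPtbp1, was called in 4 of 10 alternatives. With shGFP in place of siCtrl a, an alternative chosen after seeing the data, Gch1 came to 0.032 in siU2af65, and in siPtbp1 Th to 0.034, Dbh to 0.239, Gch1 to 0.273 and Slc18a2 to 0.293. Gch1 in siPtbp1 was 0.054 with shGFP added and 0.035 with it in place of siCtrl b, and Ache in siPtbp1 was 0.022 and 0.025 with limma at pseudocounts of 1 and 0.1. With library totals the median of all genes in siU2af65 was 0.09 and with limma 0.10 to 0.11, against 0.00 with TMM. Over all 11237 genes siU2af65 called 205 higher and 384 lower, against 581 and 581 with library totals, 339 and 706 with DESeq2, 655 and 630 with limma on log2(RPKM + 1), and 0 and 0 in each fit with shGFP among the controls, whose spread also holds the difference between hairpin and siRNA cells. For siPtbp1 the numbers were 0 higher and 3 lower, against 14 and 72 with library totals, 1 and 19 with DESeq2 and 29 and 70 with limma on log2(RPKM + 1). For siU2af65 against siPtbp1 they were 122 and 285, against 435 and 550, 277 and 524, and 462 and 604 under the same alternatives. With no filter the 3 comparisons called 688 and 961, 8 and 91, and 525 and 754, and under a filter of 5 RPKM 74 and 183, 0 and 1, and 28 and 86. Leaving out either control left no spread to test, so counts of calls were not available there and the single-control differences stand in the report. No paired analysis was possible because each knockdown group holds 1 library and the hairpin runs are combined.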
